A study of Mus musculus with 9 samples.

Results

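Plasma cells and the transport of their IgA across the colon lining were followed through 9 genes: the joining chain gene Jchain, the plasma cell genes Mzb1, Tnfrsf17, Pou2af1, Prdm1 and Irf4, the survival factor genes Tnfsf13 and Tnfsf13b, and the antibody receptor gene Pigr. They were chosen by name, and all 9 were found among the 21959 genes of the deposited table and passed the filter on low counts, as did 14921 genes in all. RNA from mouse colon was sequenced in 9 libraries, 3 in each of 3 groups. Blank mice were untreated wild-type mice. Model mice were wild-type mice given dextran sulfate sodium (DSS), a sulfated polymer that injures the colon lining and is used to model ulcerative colitis. CDs mice were wild-type mice given DSS and carbon dots made from lotus node charcoal. All groups are wild type. The sources used here state no strain, age, sex, dose or schedule. The series description calls the replicates biological. It does not say whether animals were pooled.

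In the gut wall, plasma cells secrete IgA joined into polymers by the J chain. The polymeric immunoglobulin receptor on the basal side of epithelial cells binds these polymers and carries them through the cell to the lumen, where part of the receptor stays on the antibody as secretory component. B cells become plasma cells under Irf4 and Prdm1 and are kept alive by the cytokines APRIL (Tnfsf13) and BAFF (Tnfsf13b), with the receptor BCMA (Tnfrsf17) on plasma cells. The antibody genes themselves were not analysed here, since none of the 12 constant region genes listed had a row in the files, so amounts of IgA transcript are not part of these results.

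Libraries held 13868864 to 19940300 reads in genes, and 16612 to 17120 genes had at least 1 read. At this depth 3 reads correspond to 0.150 to 0.216 CPM, the usual measure of counts relative to the library total, and every member was above that level in every library. Pancreatic acinar genes took 7.16% of the reads of Model 3, 0.873% of Model 1 and 0.0375% of CDs 1, against at most 0.0220% in the other libraries. Prostate genes took 0.149% of the reads of Blank 2 and 0.0175% of Blank 3, against at most 0.000529% elsewhere. Colon epithelial markers were present in all 9 libraries, with none of the 14 at 0. Values below are CPM scaled by edgeR's TMM factors, and a gene is said to have risen or fallen where edgeR's quasi-likelihood test gave a Benjamini-Hochberg adjusted p under 0.05 over all 14921 genes tested.

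Between Model and Blank, 3 members rose (Pou2af1, Tnfsf13b and Prdm1) and 2 fell (Pigr and Tnfsf13). Across all genes tested, 24.5% rose and 19.6% fell, so a count of 3 and 2 among 9 is near the background. Blank and Model values were apart, with no overlap, for 5 of the 9 members and for 61% of all genes. The median log2 fold change of the members was 0.62, and that of all genes tested was -0.03. Between CDs and Blank, 3 members rose and none fell, where 21.8% of all genes rose and 13.8% fell, and 5 of 9 members did not overlap, against 54.1% of all genes. The members' median was 0.87 and that of all genes 0.01. Both comparisons use the same Blank libraries. Between CDs and Model, edgeR called 0% of all genes and none of the members, 788 genes had an unadjusted p under 0.05 and none of these was a member, and DESeq2 called 50 genes, again with no member. The groups overlapped for all 9 members there, and 7.99% of all genes did not overlap.

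Promoter sequences of 8 of the 9 members, at 9 start sites, were taken from RefSeq's annotation of GRCm38.p6. Mzb1 was left out of the search. The deposited table names no build, so its coordinates were not set against these. The 250 bases before each start were searched on both strands for 8 motifs, among them the octamer ATGCAAAT, the TATA box TATAAA, the E-box CACGTG, the paired interferon regulatory factor motif GAAANNGAA and the unfolded protein response element TGACGTGG. The 3 below belong to members that changed in Model, 1 from each cell compartment: epithelium (Pigr), myeloid and stromal cells (Tnfsf13b, at the later of its 2 starts) and the B lineage (Pou2af1). Each is written 5′ to 3′ on the plus strand and ends at the base before the start, with the motif in capitals.
Pigr, chr1:130826434-130826683: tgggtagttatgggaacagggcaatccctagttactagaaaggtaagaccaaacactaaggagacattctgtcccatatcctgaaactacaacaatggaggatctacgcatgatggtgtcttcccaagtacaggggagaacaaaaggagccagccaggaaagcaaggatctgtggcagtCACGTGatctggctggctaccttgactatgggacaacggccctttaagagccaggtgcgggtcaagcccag
Tnfsf13b, chr8:10006383-10006632: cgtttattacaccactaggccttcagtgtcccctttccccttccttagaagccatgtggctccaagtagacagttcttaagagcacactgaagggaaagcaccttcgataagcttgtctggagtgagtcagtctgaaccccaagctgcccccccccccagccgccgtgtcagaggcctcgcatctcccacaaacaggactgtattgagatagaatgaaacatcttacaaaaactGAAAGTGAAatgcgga
Pou2af1, chr9:51213440-51213689: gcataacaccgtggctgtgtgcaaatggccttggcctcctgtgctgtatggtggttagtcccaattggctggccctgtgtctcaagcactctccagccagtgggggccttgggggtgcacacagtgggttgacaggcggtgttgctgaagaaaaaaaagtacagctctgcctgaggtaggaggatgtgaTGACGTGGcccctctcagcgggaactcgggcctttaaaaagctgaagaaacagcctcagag

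The capitals in the Pigr promoter are an E-box, which is the binding motif of the USF factors, 71 to 66 bases before the start. An E-box of these letters was found in 6.02% of the 32851 promoters of the table. In Tnfsf13b they are a paired interferon regulatory factor motif 16 to 8 bases before the start, found in 7.13% of promoters. In Pou2af1 they are an unfolded protein response element, the motif bound by XBP1 and ATF6, 61 to 54 bases before the start, found in 0.563% of promoters. It shares its letters ACGTG with the E-box motif but is not an E-box. The Tnfrsf17 promoter held a TATA box and, on the reverse strand, a paired interferon regulatory factor motif, and that of Irf4 held a TATA box. The windows of Jchain, Prdm1, Tnfsf13 and the earlier start of Tnfsf13b held none of the 8 motifs. A match describes letters in these windows and was not tested as a binding site.

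Of the survival factors, Tnfsf13b rose and Tnfsf13 fell in Model. Tnfsf13b (ENSMUSG00000031497, chromosome 8, 10056467 to 10089072, plus strand, in the deposited table's coordinates, which name no build) encodes BAFF, made largely by myeloid and stromal cells. Its level was 17.3, 18.2 and 13.9 CPM in Blank 1 to 3. It was 37.6, 35.0 and 42.8 CPM in Model 1 to 3. All Model libraries lay above all Blank libraries, with little spread within either group. CDs 1 to 3 had 55.1, 48.3 and 37.3 CPM, also all above Blank and overlapping Model. Model over Blank gave a log2 fold change of 1.22 ± 0.17 (SE; 2.33-fold, edgeR adjusted p = 9.30e-04) and that of CDs over Blank 1.51 ± 0.17 (2.85-fold, edgeR adjusted p = 6.28e-04). Tnfsf13b was the only member to keep its calls in all 18 alternative settings, with values from 0.998 to 1.31 for Model over Blank and from 1.26 to 1.66 for CDs over Blank.

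Like Tnfsf13b, summed macrophage and monocyte markers were higher in every DSS-treated library than in every Blank library. The same held for summed B cell, T cell, neutrophil and dendritic cell markers. For T cell markers the gap was small, with 82.8 CPM in Blank 1 and 85.7 CPM in CDs 2. In Model 3 of 12 T cell markers rose (25%, near the 24.5% of all genes). In Model 11 of 13 macrophage and monocyte markers rose (84.6%, against 24.5% of all genes). Their summed level was 596 to 780 CPM in Blank, 1891 to 2514 CPM in Model and 2279 to 2951 CPM in CDs. None of the 13 was at 0 in any library. Set against that sum, Tnfsf13b was lower in DSS-treated mice: it came to 2.22%, 2.89% and 2.33% of the sum in Blank 1 to 3, 1.99%, 1.39% and 1.70% in Model and 1.87%, 1.72% and 1.64% in CDs. Each DSS-treated library lay below each Blank library. The mean log2 ratio of Model minus that of Blank was -0.55, with an exact two-sided permutation p of 0.1, the smallest that 3 against 3 libraries allow. Ratios of this kind, here and for other members, are not scaled for gene length and serve to compare libraries, not genes. In bulk tissue, a change in the number of cells of a type and a change in RNA per cell cannot be told apart, here or in any result that follows.

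Tnfsf13 (ENSMUSG00000089669, chromosome 11, 69573672 to 69576610, minus strand) encodes APRIL. Blank 1 to 3 had 12.5, 10.2 and 7.01 CPM and Model 1 to 3 had 6.90, 3.09 and 2.88 CPM. The groups did not overlap, but the lowest Blank and the highest Model library were almost level. CDs 1 to 3 had 2.43, 5.38 and 6.32 CPM, all below Blank. Model over Blank gave -1.22 ± 0.44 on the log2 scale (edgeR adjusted p = 0.0478) and CDs over Blank gave -1.08 ± 0.43 (edgeR adjusted p = 0.0814). The second passed with DESeq2 (adjusted p = 0.0373) and without Model 1 (adjusted p = 0.0456). The first passed, and it was lost in 10 of 18 alternative settings, among them the fit with no filter on low counts (adjusted p = 0.0507). Tnfsf13 lies within the span of Tnfsfm13, a read-through gene on the same strand, and the sources used here do not say how shared reads were counted, so its level is uncertain. Tnfsfm13 itself had 6 to 28 reads per library and fell in Model (-1.50 ± 0.33, edgeR adjusted p = 0.00678).

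The next gene on that strand, Tnfsf12, which encodes the cytokine TWEAK, went the other way. It rose from 3.26 ± 0.182 CPM in Blank (SD, n = 3) to 6.64 ± 0.782 CPM in Model (edgeR log2 fold change 1.03 ± 0.17, adjusted p = 0.00188). Tnfsfm13 and Tnfsf12 were picked for their position, after the values of Tnfsf13 were seen. The opposite changes of both survival factors show in each library. The ratio of Tnfsf13b to Tnfsf13 reads was 1.39, 1.79 and 1.98 in Blank 1 to 3. The same ratio was 5.45, 11.3 and 14.8 in Model and 22.7, 8.97 and 5.90 in CDs. Every DSS-treated library lay above every Blank library. This ratio was chosen after the levels were seen and is given without a test.

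**Figure D1:**
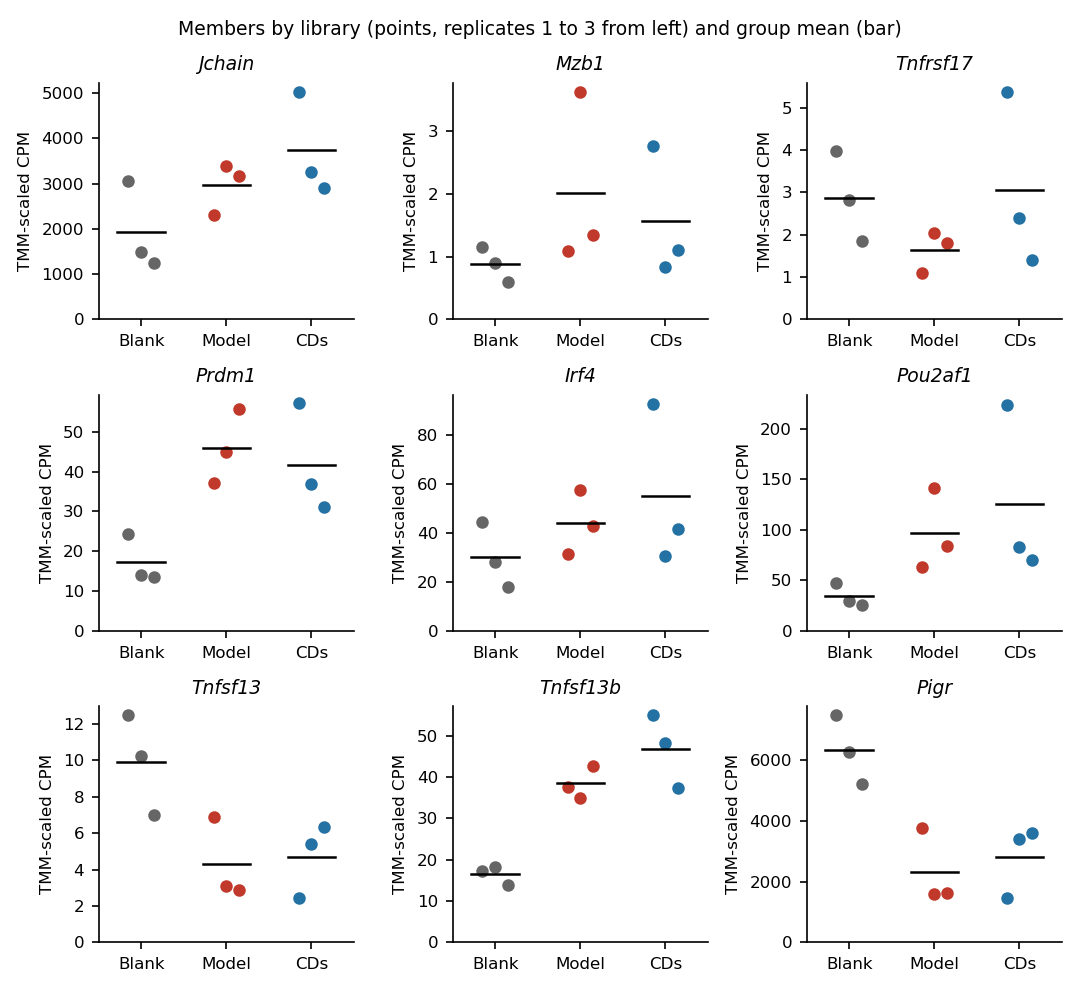
TMM-scaled CPM (y axis, from 0, a separate scale for each gene) of the 9 members in the 9 libraries, by group (x axis), with replicates 1 to 3 from left to right as points and the group mean as a bar. Tnfsf13b is higher in all 6 DSS-treated libraries than in Blank, Pigr and Tnfsf13 are lower in all 6, and CDs 1 is the highest of the CDs libraries for Jchain, Mzb1, Tnfrsf17, Prdm1, Irf4, Pou2af1 and Tnfsf13b and the lowest for Pigr and Tnfsf13.

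Tnfrsf17 (ENSMUSG00000022496, chromosome 16, 11131676 to 11137938, plus strand) encodes BCMA, the receptor for both factors on plasma cells. It was read thinly, with 15 to 84 reads per library. Blank 1 to 3 had 3.99, 2.81 and 1.84 CPM, Model 1 to 3 had 1.09, 2.04 and 1.81 CPM, and CDs 1 to 3 had 5.37, 2.39 and 1.40 CPM. All 3 groups overlapped, and CDs 1 alone was above every Blank library. Model differed from Blank by -0.79 ± 0.51 on the log2 scale (95% interval -1.94 to 0.36, edgeR adjusted p = 0.228). CDs differed from Blank by 0.08 ± 0.49 (edgeR adjusted p = 0.908). B cell markers rose, 9 of 14 in Model and 14 of 14 in CDs (64.3% and 100%, against 24.5% and 21.8% of all genes). Their sum was 81.6 to 168 CPM in Blank, 232 to 353 CPM in Model and 252 to 719 CPM in CDs. Against that sum, Tnfrsf17 came to 2.37%, 3.45% and 1.80% in Blank and to 0.470%, 0.646% and 0.513% in Model. In CDs it came to 0.747%, 0.948% and 0.487%. Every DSS-treated library lay below every Blank library, and the mean log2 ratio less that of Blank was -2.19 in Model and -1.80 in CDs (exact two-sided permutation p = 0.1 for each, the smallest possible).

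Of the 9 tested receptors and signalling genes of BAFF and APRIL, 3 rose in Model and none fell, with a median log2 fold change of 0.59. The share that rose, 33.3%, is near the 24.5% of all genes, and the share that fell was 0%, against 19.6%. In CDs 5 of 9 rose (55.6%, against 21.8% of all genes), with a median of 0.52. Map3k14, the kinase NIK that starts the noncanonical NF-kB pathway below the BAFF receptor, rose by 1.25 ± 0.20 in Model (edgeR adjusted p = 0.00165). Nfkb2, the NF-kB subunit that this kinase acts on, rose by 0.97 ± 0.17 (edgeR adjusted p = 0.00290). Traf3, which holds NIK low in resting cells, rose as well. The receptors themselves, Tnfrsf13b (TACI) and Tnfrsf13c (the BAFF receptor), had log2 fold changes of 0.85 and 1.21 that did not pass in Model (edgeR adjusted p = 0.138 and 0.122). Traf3 and Tnfrsf13b were named after their values were seen. Traf3, Map3k14 and Nfkb2 also act below other receptors of the TNF family. With Blank 1 as the only Blank library, Map3k14 and Nfkb2 did not pass (1.10 and 0.81, edgeR adjusted p = 0.0738 and 0.0954).

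Of the transcription factors, Prdm1 and Pou2af1 rose, and Irf4 did not pass. Prdm1 (ENSMUSG00000038151, chromosome 10, 44313173 to 44404497, minus strand) encodes Blimp-1, which drives the plasma cell fate and is also made by T cells, myeloid cells and some epithelial cells. Its level was 24.4, 14.1 and 13.5 CPM in Blank 1 to 3 and 37.0, 45.0 and 55.7 CPM in Model 1 to 3. It was 57.2, 37.0 and 31.2 CPM in CDs 1 to 3. All DSS-treated libraries exceeded all Blank libraries. Prdm1 was 1.40 ± 0.30 higher on the log2 scale in Model than in Blank (2.64-fold, edgeR adjusted p = 0.00596) and 1.27 ± 0.30 higher in CDs (2.41-fold, edgeR adjusted p = 0.0115). Without the Blank libraries with prostate transcripts, which leaves Blank 1 alone, these were 0.92 (adjusted p = 0.159) and 0.78 (adjusted p = 0.246).

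Pou2af1 (ENSMUSG00000032053, chromosome 9, 51125008 to 51151380, plus strand) encodes OBF-1, a coactivator that B lineage cells use with the octamer-binding factors. Blank 1 to 3 had 47.9, 29.8 and 25.5 CPM and Model 1 to 3 had 63.7, 141 and 84.5 CPM. CDs 1 to 3 had 224, 83.3 and 70.0 CPM. No DSS-treated library reached down to the Blank range, and the spread within Model and CDs was wide. On the log2 scale Pou2af1 was 1.49 ± 0.48 higher in Model than in Blank (2.81-fold, edgeR adjusted p = 0.0341) and 1.87 ± 0.49 higher in CDs (3.66-fold, edgeR adjusted p = 0.0179). The Model call was lost in 5 of 18 settings, each of which left out Blank 2, Blank 3, Model 2 or Model 3 (values 1.02 to 1.59), and the CDs call was lost without Blank 2 (1.78, adjusted p = 0.0663), without Blank 3 (1.71, adjusted p = 0.0657) and without both (1.39, adjusted p = 0.287). Relative to the B cell marker sum, Pou2af1 was 28.5%, 36.5% and 24.9% in Blank, 27.5%, 44.7% and 23.9% in Model and 31.2%, 33.0% and 24.4% in CDs. These ranges overlapped throughout, with mean log2 ratios 0.06 apart between Model and Blank (exact permutation p = 0.9).

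Irf4 (ENSMUSG00000021356, chromosome 13, 30933209 to 30950959, plus strand) acts with Blimp-1 in plasma cells and also in activated T cells and dendritic cells. Its level was 44.2, 27.9 and 17.7 CPM in Blank 1 to 3, 31.4, 57.4 and 42.8 CPM in Model 1 to 3 and 92.6, 30.6 and 41.5 CPM in CDs 1 to 3. Blank 1 lay inside the range of Model, and CDs 1 stood far above the other CDs libraries. Over Blank, Irf4 had a log2 fold change of 0.55 ± 0.45 in Model (95% interval -0.47 to 1.58, edgeR adjusted p = 0.345) and 0.87 ± 0.45 in CDs (edgeR adjusted p = 0.159). Blank 1, Model 2 and CDs 1 had the highest T cell marker sum of their groups, as they had the highest Irf4. This was not particular to T cells. The same libraries were the highest of their groups for summed neutrophil markers and the summed plasma cell program described below. They were also the highest for Jchain, Mzb1, Tnfrsf17 and Pou2af1. The T cell sum was 82.8, 32.2 and 35.0 CPM in Blank 1 to 3 and 224, 85.7 and 105 CPM in CDs 1 to 3. In Model it was 86.0, 136 and 117 CPM. No B or T cell marker was at 0 in any library, and the part of these cells in the levels of Irf4 was not tested.

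Among the secretory genes, Jchain was read most but did not pass the test in either DSS-treated group. Jchain (ENSMUSG00000067149, chromosome 5, 88667668 to 88675750, minus strand) encodes the chain that joins IgA and IgM into polymers. Blank 1 to 3 had 3047, 1493 and 1249 CPM, and Model 1 to 3 had 2312, 3394 and 3179 CPM. CDs 1 to 3 had 5034, 3266 and 2914 CPM. Blank 1 lay within the range of both DSS-treated groups, and the other Blank libraries lay below them. Its log2 fold change over Blank was 0.62 ± 0.36 in Model (95% interval -0.19 to 1.43, edgeR adjusted p = 0.185) and 0.95 ± 0.36 in CDs (edgeR adjusted p = 0.0667). Both calls turned on Blank 1: without it the values were 1.12 (adjusted p = 0.0260) and 1.45 (adjusted p = 0.0134), whereas with Blank 1 as the only Blank library they were -0.04 and 0.30. DESeq2 also called the CDs difference (adjusted p = 0.0241).

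Relative to B cell markers, Jchain was lower in Model. It stood at 18.1, 18.3 and 12.2 times the B cell marker sum in Blank 1 to 3 and at 9.97, 10.7 and 9.01 times in Model 1 to 3. In CDs 1 to 3 it was 7.0, 13.0 and 10.2 times. Model lay wholly below Blank (difference of mean log2 ratios -0.69, exact two-sided permutation p = 0.1, the smallest possible), and CDs overlapped Blank (-0.71, exact permutation p = 0.2). The genes whose profile over the 9 libraries was nearest to that of Jchain were B2m, AI467606 and H2-D1, with root mean square differences of 0.12, 0.14 and 0.17 on the centred log2 scale. B2m and H2-D1 encode the light and a heavy chain of MHC class I and are made in most cell types. Among members, Irf4 was the nearest to Jchain, at 0.28, and Prdm1 next, at 0.33.

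Mzb1 (ENSMUSG00000024353, chromosome 18, 35780320 to 35782420, minus strand) encodes a chaperone of the endoplasmic reticulum that helps assemble antibodies. It was the member with the fewest reads, 8 to 76 per library. Blank 1 to 3 had 1.16, 0.892 and 0.590 CPM, Model 1 to 3 had 1.09, 3.61 and 1.34 CPM, and CDs 1 to 3 had 2.75, 0.837 and 1.10 CPM. Model 2 and CDs 1 stood above the rest and the groups overlapped. Between Model and Blank the log2 fold change was 1.21 ± 0.60 (95% interval -0.16 to 2.57, edgeR adjusted p = 0.131). Without the libraries with pancreatic transcripts, which leaves Model 2 alone in its group, it was 2.01 (adjusted p = 0.00769). Against the B cell marker sum, Mzb1 came to 0.689%, 1.09% and 0.576% in Blank 1 to 3. It came to 0.470%, 1.14% and 0.380% in Model and 0.383%, 0.332% and 0.385% in CDs. Model overlapped Blank (difference of mean log2 ratios -0.36, exact permutation p = 0.6). CDs lay wholly below Blank (-1.05, exact permutation p = 0.1, the smallest possible). Mzb1 lies almost wholly within the span of Gm50318 (35780321 to 35795216), a predicted gene on the same strand that had 0 reads in all libraries. How reads shared by both were counted is not stated, so the level of Mzb1 is uncertain and its few reads may not reflect its expression.

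The wider plasma cell program of 20 genes changed in part. In Model 6 rose and 1 fell, with a median log2 fold change of 0.42, and in CDs 6 rose and none fell, with a median of 0.55. The share that rose, 30.0% in each, is close to the 24.5% and 21.8% of all genes. The shares that fell, 5% and 0%, were below the 19.6% and 13.8% of all genes. The medians of all genes were -0.03 and 0.01. Derl3, which exports misfolded proteins from the endoplasmic reticulum of secretory cells, rose by 1.46 ± 0.44 in Model (edgeR adjusted p = 0.0265). Fcrl5, a receptor on B and plasma cells, rose by 1.89 ± 0.51 (edgeR adjusted p = 0.0165) from a low level of 0.925 ± 0.535 CPM in Blank (SD, n = 3). The smallest p belonged to Zbtb20, a zinc finger factor also made outside the B lineage (0.62 ± 0.11, edgeR adjusted p = 0.00303), and Herpud1, a stress gene of the endoplasmic reticulum (0.43 ± 0.09, edgeR adjusted p = 0.00583). Sdc1, the plasma cell surface marker CD138 that epithelial cells also carry, passed at 0.86 ± 0.31 (edgeR adjusted p = 0.0492). Sdc1 had 221, 176 and 183 CPM in Blank 1 to 3 and 211, 557 and 281 CPM in Model 1 to 3, so Model 2 stood far above the rest and Model 1 lay below Blank 1. Cd38 rose as well. Txndc5, a protein disulfide isomerase, was the gene that fell, by 0.45 on the log2 scale (edgeR adjusted p = 0.0489). Xbp1, which drives secretory capacity, had a log2 fold change of 0.45 ± 0.18 that did not pass in Model (edgeR adjusted p = 0.0660) and rose by 0.57 ± 0.18 in CDs (edgeR adjusted p = 0.0345). Derl3, Fcrl5, Sdc1, Cd38, Txndc5 and Xbp1 were named after their values were seen. With Blank 1 as the only Blank library, Herpud1 did not pass in Model (0.41, edgeR adjusted p = 0.103).

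Many genes for the induction of IgA and for the homing of plasma cells rose. Of 17 tested genes of IgA induction, 11 rose in Model and 13 in CDs, none fell, and the medians were 1.66 and 1.45. The shares that rose were 64.7% and 76.5%, against 24.5% and 21.8% of all genes. Aldh1a3, which makes retinoic acid, rose by 3.12 ± 0.22 in Model (edgeR adjusted p = 1.62e-04). Il6, a cytokine that supports plasma cells, rose (edgeR adjusted p = 3.14e-04) from 0.113 ± 0.0344 CPM in Blank to 37.9 ± 21.6 CPM in Model (SD, n = 3). Its Blank libraries were each under the level of 3 reads, so no fold is given. Several genes of this list are also general genes of inflammation, and neutrophil markers rose in 12 of 12 in the same libraries.

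Of 15 homing and niche genes, 10 rose and 1 fell in Model, with a median of 1.34, and 11 rose and 1 fell in CDs, with a median of 1.53. The shares that rose were 66.7% and 73.3%, against 24.5% and 21.8% of all genes. In each comparison 6.67% fell, against 19.6% and 13.8%. Madcam1, the vessel address for gut-homing lymphocytes, rose by 2.91 ± 0.24 in Model (edgeR adjusted p = 2.31e-04). Vcam1, an adhesion molecule of vessels and stroma, rose by 3.43 ± 0.33 (edgeR adjusted p = 2.77e-04). The gene that fell in Model was Ccl28, the chemokine with which colon epithelium draws in IgA plasma cells: its level was 316 ± 73.8 CPM in Blank (SD, n = 3), against 98.3 ± 53.0 CPM in Model and 122 ± 63.7 CPM in CDs. Its log2 fold change was -1.69 ± 0.48 in Model (edgeR adjusted p = 0.0213) and -1.37 ± 0.48 in CDs (edgeR adjusted p = 0.0516). Its receptor on plasma cells, Ccr10, had -0.13 ± 0.32 in Model (edgeR adjusted p = 0.769). Ccl28 was named after its value was seen.

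Pigr, the transporter itself, fell in Model. Pigr (ENSMUSG00000026417, chromosome 1, 130754421 to 130779986, plus strand) is made by the epithelium. Its level was 7464, 6269 and 5214 CPM in Blank 1 to 3 and 3743, 1583 and 1637 CPM in Model 1 to 3. CDs 1 to 3 had 1450, 3407 and 3605 CPM. No DSS-treated library reached the Blank range, and Model 1, CDs 2 and CDs 3 were the highest of the treated libraries. Model over Blank gave a log2 fold change of -1.44 ± 0.43 (0.368-fold, 95% interval -2.41 to -0.48, edgeR adjusted p = 0.0244), and it was lost in 6 of 18 settings, among them those that left out Blank 1, Blank 2, Model 2 or Model 3 (adjusted p from 0.0590 to 0.0914). In CDs over Blank it was -1.16 ± 0.42 (edgeR adjusted p = 0.0602), and it passed in 4 of 18 settings. Among these were DESeq2 (adjusted p = 0.0110), edgeR without Model 1 (adjusted p = 0.0254) and edgeR on only the 2 groups compared (adjusted p = 0.0412).

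Like Pigr, summed epithelial markers lay below Blank in Model, but in CDs the sum overlapped Blank (exact permutation p = 0.2). In Model 6 of 14 fell (42.9%, against 19.6% of all genes) and in CDs 4 of 14 (28.6%, against 13.8%). Their summed level was 12104 to 13907 CPM in Blank, 6285 to 11041 CPM in Model and 6798 to 12150 CPM in CDs. Relative to that sum Pigr was also lower in DSS-treated mice: it came to 53.7%, 51.8% and 37.7% of the sum in Blank 1 to 3, 33.9%, 23.1% and 26.1% in Model and 21.3%, 33.7% and 29.7% in CDs. Every DSS-treated library lay below every Blank library. The mean log2 ratio less that of Blank was -0.79 in Model and -0.77 in CDs (exact two-sided permutation p = 0.1 for each, the smallest possible). The nearest profiles to Pigr over the 9 libraries were those of Vsig10, Dhrs11 and Clmn, with root mean square differences of 0.12, 0.14 and 0.15. Each of them fell in Model, with log2 fold changes of -1.42, -1.27 and -1.21 (edgeR adjusted p = 0.0194, 0.0238 and 0.0394). Of the members, Tnfsf13 was the nearest to Pigr, at 0.15.

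**Figure D2:**
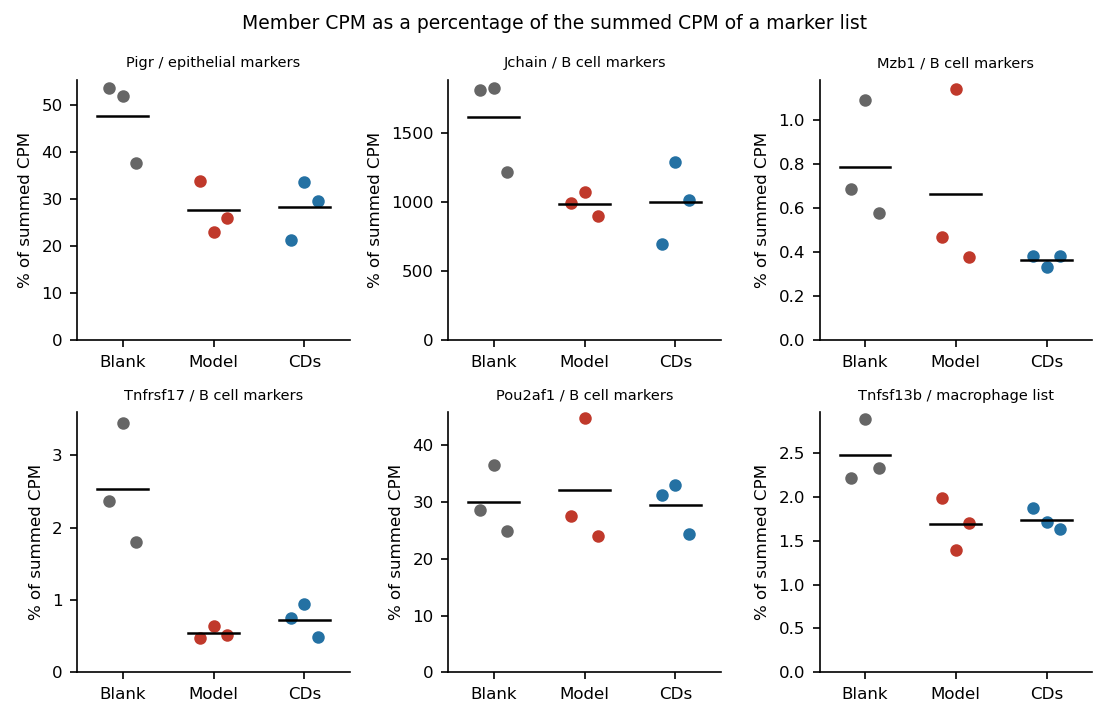
CPM of 6 members as a percentage of the summed CPM of a cell type's marker list (y axis, from 0) in each library, by group (x axis), with replicates 1 to 3 as points from left to right and the group mean as a bar. For Pigr, Tnfrsf17 and Tnfsf13b all 6 DSS-treated libraries lie below all 3 Blank libraries, whereas Pou2af1 overlaps between all groups.

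Most tested regulators of Pigr rose. In Model 9 of 16 rose and 2 fell, with a median of 0.49, and in CDs 10 rose and 1 fell, with a median of 0.55. The shares that rose were 56.25% and 62.5%, against 24.5% and 21.8% of all genes. Those that fell were 12.5% and 6.25%, against 19.6% and 13.8%. The list holds cytokines and receptors that raise Pigr in cultured epithelial cells, and the factors that bind its promoter. Tnfrsf1a, the main receptor for TNF, rose by 1.35 ± 0.12 in Model (edgeR adjusted p = 2.62e-04). Il4ra, a chain of the IL-4 receptor, rose by 2.20 ± 0.25 (edgeR adjusted p = 4.22e-04). Among those that fell was Il17rc, a chain of the IL-17 receptor (-1.04 ± 0.33, edgeR adjusted p = 0.0333), named after its value was seen. Ifng, Il17a and Tfap2a did not pass the filter on low counts.

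Genes for transcytosis and apical traffic, the route that the receptor takes, changed in both directions. In Model 4 of 16 tested rose and 7 fell, with a median of -0.10. The share that rose, 25%, is near the 24.5% of all genes. The share that fell was 43.75%, against 19.6% of all genes. Rab11fip5, an adaptor of the recycling endosome, rose by 1.40 ± 0.18 (edgeR adjusted p = 6.17e-04), and Fcgrt, which encodes the IgG transporter FcRn, rose by 0.82 ± 0.11 (edgeR adjusted p = 7.28e-04). Rab25 and Rab17, small GTPases of epithelial recycling, fell by 1.27 and 1.34 on the log2 scale (edgeR adjusted p = 0.00933 and 0.0375), and were named after their values were seen. Rab3b, a GTPase known to bind the Pigr tail, had 8.08 ± 1.18 CPM in Blank (SD, n = 3), with 5.26 ± 0.368 CPM in Model and 8.16 ± 1.35 CPM in CDs. It fell in Model (-0.62 ± 0.18, edgeR adjusted p = 0.0245), and its difference of 0.63 ± 0.18 between CDs and Model did not pass (edgeR adjusted p = 0.891). In CDs over Blank, 4 of the 16 rose (25%, near the 21.8% of all genes) and 1 fell (6.25%, against 13.8%).

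**Figure D3:**
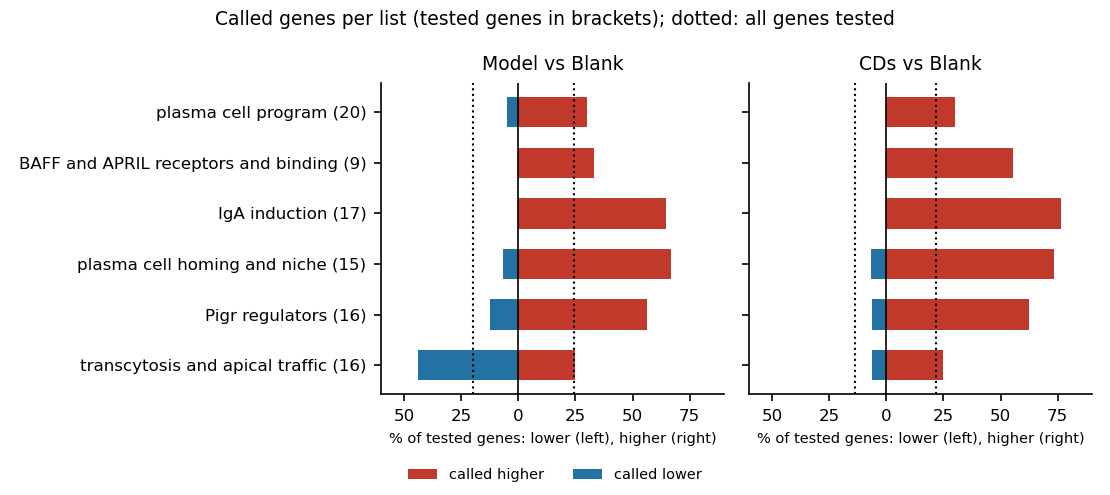
Share of tested genes in each of 6 lists that rose (right of 0) or fell (left of 0) in Model over Blank and in CDs over Blank, in percent (x axis), with the number tested in brackets and the shares of all genes tested as dotted lines. For genes that rose, the plasma cell program lies near the dotted lines, with 30.0% in each comparison, and IgA induction, homing and Pigr regulators lie above them. For genes that fell, the plasma cell program lies short of the dotted lines, with 5% in Model and 0% in CDs, against 19.6% and 13.8%. The comparisons share the Blank libraries.

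Transport and cargo were also set side by side. Per unit of length (FPKM, counts scaled by gene length and library total), Pigr led in Blank with a mean of 1519, 2.05 times that of Jchain at 742, and their ranges did not overlap. In Model Jchain had 1188 and Pigr 578, with ranges that overlapped. In CDs Jchain had 1536 and Pigr 707, with ranges that did not overlap. In every group Pou2af1 came next, with 13.1 in Blank, 38.5 in Model and 51.7 in CDs, apart from its neighbours in order. Below it came Irf4, with 5.91, 9.07 and 11.7, and the remaining 5 members had means between 0.701 and 8.27. Neighbours in that order overlapped, except Tnfsf13b over Mzb1 in Blank and Prdm1 over Tnfsf13b and Tnfsf13b over Tnfsf13 in Model. The places of Mzb1 and Tnfsf13 are uncertain, since both overlap other genes on their strand. The ratio of Jchain to Pigr reads was 0.408, 0.238 and 0.240 in Blank 1 to 3, 0.618, 2.14 and 1.94 in Model and 3.47, 0.959 and 0.808 in CDs. Every DSS-treated library lay above every Blank library, and CDs overlapped Model. This ratio was chosen after the levels were seen and is given without a test.

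**Figure D4:**
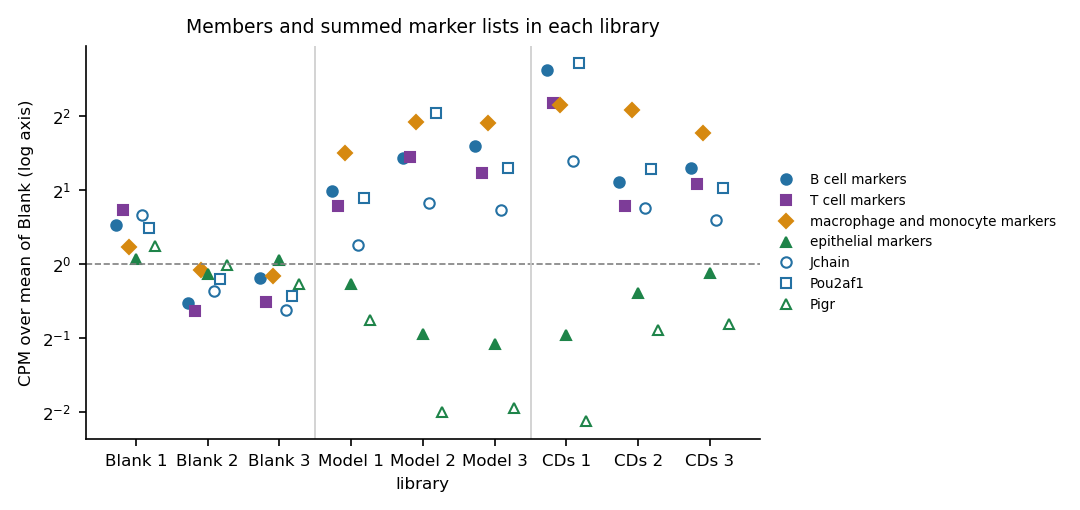
CPM of Jchain, Pou2af1 and Pigr (open symbols) and summed CPM of 4 marker lists (filled symbols) in each library (x axis), divided by the mean of the 3 Blank libraries (y axis, log scale to base 2). Blank 1 is the highest Blank library for every gene and list shown. CDs 1 is the highest CDs library except for epithelial markers and Pigr, where it is the lowest.

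The comparison of CDs with Model asked whether the carbon dots changed the response to DSS. No member passed, and the 95% intervals of the log2 fold changes show what these libraries leave possible. They ran from -0.47 to 1.14 for Jchain, from -0.68 to 1.44 for Pou2af1, from -0.67 to 1.23 for Pigr and from -0.85 to 1.14 for Tnfsf13. The narrowest was that of Tnfsf13b, from -0.09 to 0.66 (log2 fold change 0.29 ± 0.17, edgeR adjusted p = 0.936), followed by Prdm1, from -0.79 to 0.52. Changes of more than 2-fold upwards were within the intervals of Jchain, Pou2af1, Pigr, Tnfsf13, Tnfrsf17 and Irf4 and not within those of Mzb1, Tnfsf13b and Prdm1. Of the members, Mzb1 alone had an interval that held a change of more than 2-fold downwards (-1.68 to 0.90). CDs 1 differed from CDs 2 and CDs 3 in most members, being the highest for 7 and the lowest for Pigr and Tnfsf13. Without the libraries with pancreatic transcripts, CDs 2 and CDs 3 were compared with Model 2 alone, and there Pigr was higher in CDs (1.15, edgeR adjusted p = 0.0203), where the spread of the lone Model library was taken from the other groups.

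In the lists, no gene passed between CDs and Model. The gene of each list with the smallest p was Herpud1 in the plasma cell program (-0.38 ± 0.09, edgeR adjusted p = 0.891) and Rab3b in transcytosis, given above. It was Il6 in IgA induction (-1.22 ± 0.49, edgeR adjusted p = 0.936) and Ccr10 in homing (0.64 ± 0.32, edgeR adjusted p = 0.936). In the BAFF and APRIL list it was Tnfrsf13c (0.60 ± 0.56) and among Pigr regulators Ifngr1 (0.24 ± 0.13), both with an edgeR adjusted p of 0.936. DESeq2 called Herpud1 lower in CDs (-0.41, adjusted p = 0.0146). Against Model 2 alone, Il6 was lower in CDs 2 and CDs 3 (-2.06, edgeR adjusted p = 0.00204).

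**Figure D5:**
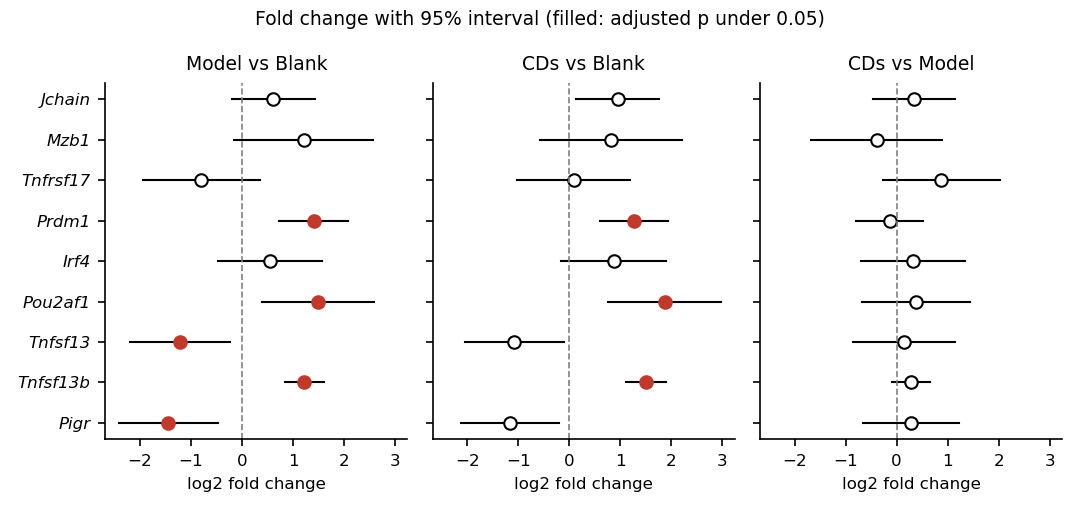
Log2 fold change (x axis) of the 9 members with its 95% interval (line) in Model over Blank, CDs over Blank and CDs over Model, with filled points where edgeR's adjusted p was under 0.05. Filled points are Pou2af1, Prdm1, Tnfsf13b, Tnfsf13 and Pigr in the first panel and Pou2af1, Prdm1 and Tnfsf13b in the second. The third panel has none, and each interval there includes 0.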

How the data were processed

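RNA was taken from mouse colon in 9 libraries, and titles give each library's group and number. The submitters' processing notes name HISAT2 2.1.0, HTSeq 0.9.1 and fastp 0.22.0. Neither the genome build nor the strand setting of the counting was found in those notes or in the headers. Counts and FPKM per gene were deposited, per the file headers. The FPKM equalled count per length and library total for 100% of values, within a relative tolerance of 1e-06. Counts were filtered (filterByExpr), scaled (TMM) and fitted in 1 model of all 9 libraries with edgeR 4.0.16 (R 4.3.3; quasi-likelihood F test, Benjamini-Hochberg adjustment over 14921 genes, threshold 0.05), which was tested on simulated data. Alternatives used DESeq2 1.42.0 and limma 3.58.1. Ratios to the summed CPM of marker lists were compared with exact permutation tests over libraries; p-values below 0.1 cannot be reached with 3 against 3.

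The members and lists were chosen with earlier results of these data known. Named genes are the members, the 2 genes of each pathway list with the smallest p in Model vs Blank and the 1 in CDs vs Model, and the 3 profiles nearest to Jchain and to Pigr; others are marked as named after their values were seen. No pair of libraries of 1 group agreed within counting noise (chi-square per degree of freedom 16.7 to 173). The labels name no batch. Promoters are from RefSeq's table for GRCm38.p6. Values of some single list genes are not reported here.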

Additional observations from a re-analysis of the deposited data

How the results depend on the processing

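Each fold change was refitted in 18 other settings: DESeq2, no TMM scaling, no filter, limma on log2(FPKM + 1) and log2(FPKM + 0.1), only the 2 groups compared, a replicate block, each library left out, and the libraries with pancreatic transcripts or with prostate transcripts left out. Replicate numbers did not pair the samples: same-numbered deviations correlated at -0.04 to -0.01 (Model with Blank), -0.37 to 0.21 (CDs with Model) and 0.06 to 0.17 (CDs with Blank). With the replicate block, members called in Model vs Blank went from 5 to 3, Pigr (adjusted p = 0.0522) and Tnfsf13 (0.0807) no longer passing, and the block changed no other member's call.

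Without the Blank libraries with prostate transcripts, Blank 1 stands alone and takes its spread from the other groups: 1536 genes and 1 member (Tnfsf13b) were called in Model vs Blank and 465 genes and 1 member in CDs vs Blank, and log2 fold changes were -0.038 for Jchain and -0.0067 for Irf4 in Model vs Blank and -0.38 for Tnfrsf17 in CDs vs Blank. Without the libraries with pancreatic transcripts (Model 2 alone in its group), 1241 genes and 1 member were called in CDs vs Model, where Jchain was -0.13, Tnfrsf17 -0.093, Pou2af1 -0.88, Irf4 -0.67 and Tnfrsf13c -0.61, and Tnfrsf17 was -0.60 in CDs vs Blank. DESeq2 called 50 genes in CDs vs Model and 6 members in CDs vs Blank. With FPKM summed, the log2 ratio of Pou2af1 to B cell markers was 0.047 in CDs vs Blank and that of Tnfsf13b to macrophage markers -0.11 in CDs vs Model. The cause of these differences was not tested.

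Leaving out 1 library at a time gave 2 to 5 members called in Model vs Blank (2 without Blank 2, Model 2 or Model 3, 3 without Blank 3) and 2 to 5 in CDs vs Blank (5 without Model 1, 2 without Blank 2 or Blank 3), with 3398 to 5540 genes called in CDs vs Blank (3398 without Blank 2). In CDs vs Model the fold changes ranged from -1.09 to 0.36 (Mzb1), -0.33 to 0.76 (Pou2af1), -0.12 to 0.65 (Tnfsf13), -0.43 to 0.040 (Prdm1), -0.29 to 0.61 (Irf4) and -0.23 to 0.92 (Tnfrsf13c), and the log2 ratios from -0.12 to 0.21 (Pigr to epithelial markers), -0.23 to 0.22 (Jchain to B cell markers), -0.26 to 0.19 (Pou2af1 to B cell markers), -0.084 to 0.17 (Tnfsf13b to macrophage markers), -0.42 to 0.55 (Tnfsf13b to Tnfsf13) and -0.64 to 0.41 (Jchain to Pigr). Tnfrsf17 in CDs vs Blank ranged from -0.60 to 0.44, and the ratio of Pou2af1 to B cell markers from -0.21 to 0.25 in Model vs Blank and -0.14 to 0.14 in CDs vs Blank. Each of these log2 ranges includes 0. Mzb1 had 8 to 76 reads per library and Tnfrsf17 15 to 84.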
